A study of Mus musculus with 6 samples.

Results

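Transcripts of 8 genes that build caveolae were followed in cultured mouse fat cells exposed to kynurenic acid, a breakdown product of tryptophan. The genes were the caveolins Cav1, Cav2 and Cav3, the cavins Ptrf, Sdpr and Prkcdbp (now Cavin1, Cavin2 and Cavin3), and the accessory genes Ehd2 and Pacsin2. They were taken by symbol from the 25614 genes tested, each with the transcript cluster of type 1, the class whose probes are annotated as matching a single gene, that had the highest mean over all arrays. All 8 symbols were found, and each had a single cluster in the table. Fully differentiated primary adipocytes from inguinal fat, a subcutaneous white depot, received 50 µM kynurenic acid (KYNA) or PBS as the control for 12 h. RNA of each group was hybridised to 3 Affymetrix MoGene 2.0 ST arrays. The strain, age and sex of the donor animals were not given in the sources used here. The sample titles call the arrays technical replicates, and separate cultures are not mentioned. The p-values therefore set the difference against array-to-array spread, which may be technical, and not against spread between animals or cultures.

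Caveolae are small flask-shaped pits of the plasma membrane, and adipocytes are among the cells richest in them. Caveolins insert into the inner leaflet and bind cholesterol, cavins assemble on them from the cytosol into a coat, EHD2 sits as an ATP-driven ring at the neck, and PACSIN2 bends the membrane through its F-BAR domain. In fat cells the pits store membrane area, hold insulin and fatty acid uptake proteins, and are lost together with fat mass when caveolin-1 or cavin-1 is missing in people or mice.

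Array medians over the 25614 genes lay between 4.25 and 4.32 log2. Any pair of arrays had a Pearson r of 0.993 to 0.996 over the genes, which are no independent replicates. No pair of arrays held equal values. The 11 measured adipocyte markers, among them Adipoq, Fabp4, Plin1 and Pparg, read above the background probe sets in all 6 arrays. So did 14213 of the 25614 genes, all 10 macrophage markers and 8 of 9 preadipocyte and fibroblast markers. Detection alone therefore does not single out adipocytes. The 23 antigenomic background probe sets match no mouse sequence and had array means between 3.58 and 3.91 log2.

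The 250 bases upstream of the annotated start are shown for 5 members (RefSeq, GRCm38.p6, 5′ to 3′ on the gene's strand). Cav1 and Cav2 are neighbours on chromosome 6, the array's Cav2 cluster ending 17219 bases before the Cav1 cluster starts, and gave the largest differences among members well above background. Ptrf encodes the core cavin, and Cav3 the caveolin of muscle. Capitals mark a GC box, the letters GGGCGG or CCGCCC that Sp1-type factors are known to bind, and Cav3 held none.
Cav1 at chr6:17306085-17306334, plus strand: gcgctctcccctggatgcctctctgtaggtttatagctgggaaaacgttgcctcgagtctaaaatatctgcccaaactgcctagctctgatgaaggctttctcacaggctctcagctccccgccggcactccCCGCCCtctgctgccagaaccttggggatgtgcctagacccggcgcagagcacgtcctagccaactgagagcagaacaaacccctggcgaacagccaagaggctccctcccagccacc
Cav2 at chr6:17280935-17281184, plus strand: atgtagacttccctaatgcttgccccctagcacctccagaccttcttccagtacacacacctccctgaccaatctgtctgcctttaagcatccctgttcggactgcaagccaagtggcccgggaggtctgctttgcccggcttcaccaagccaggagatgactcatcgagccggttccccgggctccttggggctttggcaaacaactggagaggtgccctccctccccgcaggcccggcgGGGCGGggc
Ptrf at chr11:100970618-100970867, minus strand: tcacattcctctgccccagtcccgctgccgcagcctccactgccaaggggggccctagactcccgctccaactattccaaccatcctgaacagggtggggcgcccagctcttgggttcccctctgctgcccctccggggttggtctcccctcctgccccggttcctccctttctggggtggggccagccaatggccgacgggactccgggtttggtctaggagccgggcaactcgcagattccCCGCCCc
Cav3 at chr6:112459255-112459504, plus strand: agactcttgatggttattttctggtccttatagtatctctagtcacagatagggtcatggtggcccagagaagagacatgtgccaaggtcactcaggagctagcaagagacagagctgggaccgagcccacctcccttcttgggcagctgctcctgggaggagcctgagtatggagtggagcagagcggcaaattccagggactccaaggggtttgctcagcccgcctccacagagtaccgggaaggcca
In Ehd2, shown because it holds the core letters bound by the aryl hydrocarbon receptor, a receptor reported to bind kynurenic acid, the capitals mark GCGTG or CACGC.
Ehd2 at chr7:15967536-15967785, minus strand: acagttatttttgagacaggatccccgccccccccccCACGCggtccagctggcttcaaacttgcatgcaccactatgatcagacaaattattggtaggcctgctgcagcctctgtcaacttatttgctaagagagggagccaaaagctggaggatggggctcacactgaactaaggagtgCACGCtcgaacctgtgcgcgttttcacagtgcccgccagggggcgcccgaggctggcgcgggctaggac

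Start sites were matched for 7 of the 8 members, 11 sites in all, and Prkcdbp was not matched. On both strands, GGGCGG was present upstream of the first start site of Cav1, Cav2, Ptrf, Ehd2 and Pacsin2, and in 32.7% of 32851 annotated start regions of the same length. GCGTG occurred upstream of Ehd2 (2 matches) and of sites 1 and 3 of Pacsin2 (1 match each), against 28.2% of all regions. CCAAT occurred in Cav2, Ptrf, Sdpr, Ehd2 and the first Pacsin2 site, against 33.8% of all regions, and TATAAA in Cav1 alone among the matched members, against 12.4%. The GC content of the first regions was 59.6% for Cav1, 62.0% for Cav2, 67.6% for Ptrf and 40.4% for Sdpr, around a median of 52.4% over all regions. A match describes letters in these windows and is no evidence of a bound site.

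Caveolae transcripts were measured at nearly the same levels with kynurenic acid as with PBS. The comparison asks whether an acute exposure altered them. In the limma fit over all genes 0 of the 8 passed an adjusted p of 0.05, as did 0% of the 25614 genes, whose smallest adjusted p was 0.332. All 8 means were lower with kynurenic acid, with log2 differences from -0.13 for Cav2 to -0.0067 for Sdpr and a median of -0.07. Over all genes 46.6% of differences lay below 0, with a median of 0.01. No member was below an unadjusted limma p of 0.05, against 9.80% of all genes (4.96% lower and 4.84% higher). The methods' t-test, the one the deposited table names, put 1 member there, Cav1, against 8.0% of all genes. After Benjamini-Hochberg adjustment the methods' t-test called 0 members and 0% of all genes. No member differed by 1.5-fold or more, and 0.0781% of all genes did. Expressed as folds, the 95% intervals of all 8 members lay between 0.80 and 1.13.

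Cav1 encodes caveolin-1, the scaffold without which non-muscle caveolae do not form. Its cluster of 25 probes lies on chromosome 6 from 17306335 to 17341452 (mm10, plus strand). Cav1 read 10.30, 10.26 and 10.25 log2 in the kynurenic acid arrays, against 10.34, 10.45 and 10.36 log2 in the PBS arrays. All 3 kynurenic acid arrays lay below all 3 PBS arrays. The means were 10.27 ± 0.027 log2 with kynurenic acid and 10.38 ± 0.059 log2 with PBS (SD, n = 3 each). The log2 difference of -0.11 (SE 0.075) corresponded to a fold of 0.92, with a 95% interval from 0.82 to 1.04, and limma gave an adjusted p = 0.632. In the authors' deposited table Cav1 has a signed fold of -1.08 with p = 0.0415 and q = 0.525.

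Groups without overlap occurred in 2 of the 8 members, Cav1 and Cav3, both lower, and in 14.8% of all genes, 7.51% on the lower side. Of the 7 members above background in every array, 7 lay below 0 and 1, Cav1, had groups without overlap. Among all 14213 genes above background in every array, 54.8% lay below 0 and 17.5% had groups without overlap, 10.9% on the lower side.

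Cav2 encodes caveolin-2, which needs caveolin-1 to reach the cell surface and joins it in mixed oligomers. The cluster has 25 probes from 17281185 to 17289115 on chromosome 6. Cav2 read 8.79, 8.71 and 8.79 log2 with kynurenic acid, against 8.94, 8.97 and 8.76 log2 with PBS. PBS array 3 read among the kynurenic acid arrays, and the other two PBS arrays read above them. The log2 difference was -0.13 (SE 0.085, fold 0.92, 95% interval 0.80 to 1.05), the largest of the 8, with a limma adjusted p = 0.635. It was -0.081 log2 after cyclic loess, -0.087 without PBS array 2 and -0.19 without PBS array 3, with limma adjusted p-values of 0.807, 0.837 and 0.547 in that order.

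Cav3 encodes the caveolin of skeletal, heart and smooth muscle, and was not well above background here. The 20 probes on chromosome 6 from 112459501 to 112472872 read 3.60, 3.42 and 3.58 log2 with kynurenic acid, against 3.66, 3.68 and 3.61 log2 with PBS. The background probe sets of the same arrays averaged 3.88, 3.76 and 3.91 log2 with kynurenic acid, against 3.76, 3.58 and 3.75 log2 with PBS, so Cav3 exceeded them in PBS array 2 alone. The log2 difference of -0.12 (SE 0.081, adjusted p = 0.649 by limma) thus compares readings at background, and was -0.06 without kynurenic acid array 2. Murc (now Cavin4), the muscle cavin, was likewise above background in 1 of 6 arrays, with 3.51, 3.17 and 3.45 log2 with kynurenic acid, against 3.63, 3.71 and 3.67 log2 with PBS.

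**Figure D1:**
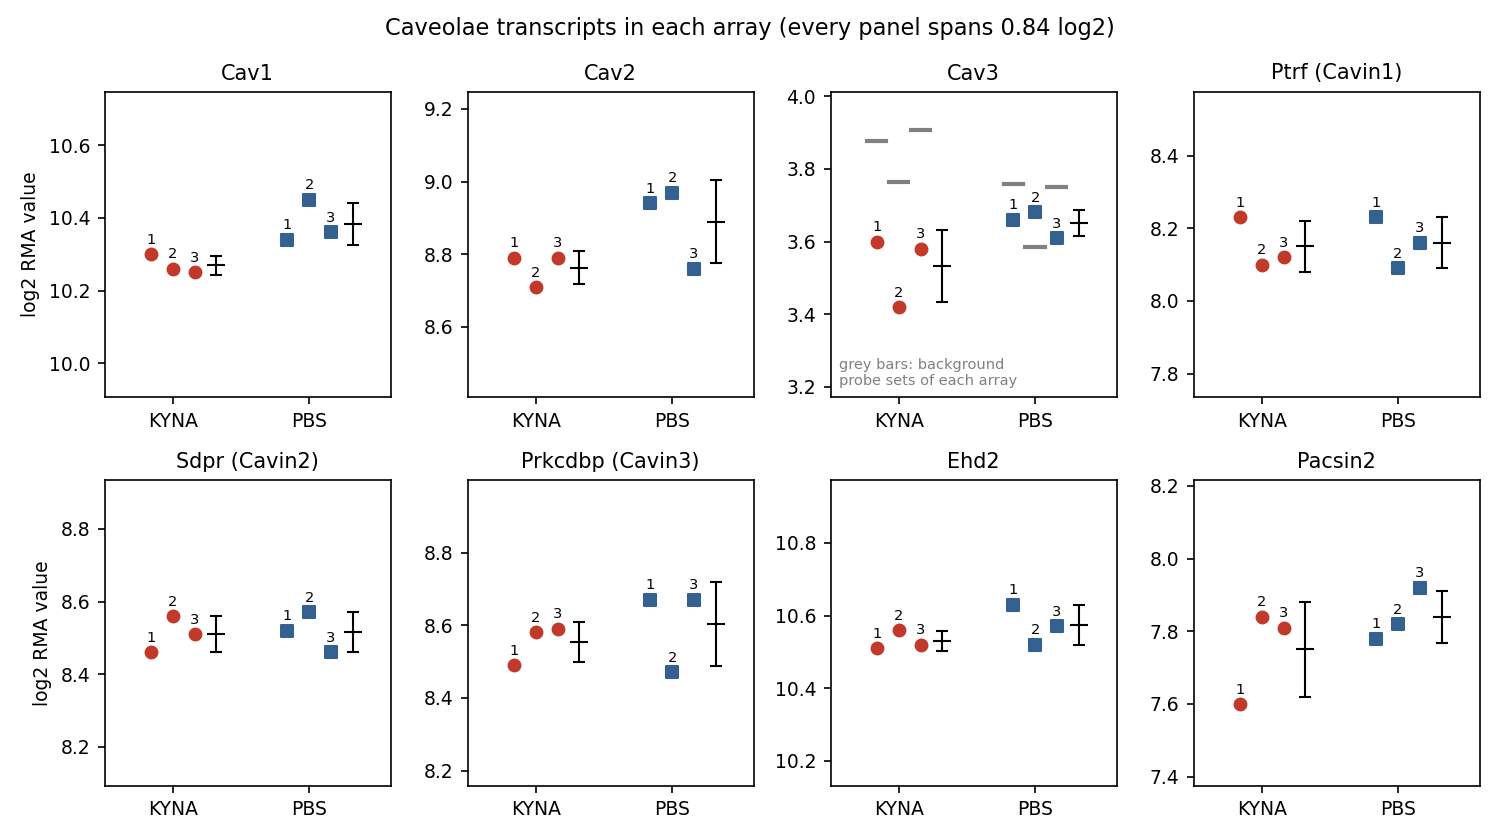
Log2 RMA value of each caveolae transcript (vertical axis) in the 3 kynurenic acid (KYNA) and 3 PBS arrays, numbered by replicate, with the mean and SD of each group as black bars and, for Cav3, the mean of the background probe sets of each array in grey. Cav1 and Cav3 are the 2 transcripts whose groups do not overlap, Cav3 at background. The Ptrf and Sdpr groups cover nearly the same range.

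The cavins showed smaller differences. Ptrf (Cavin1) encodes the cavin without which caveolin-1 does not form caveolae. Its 23 probes lie on chromosome 11 from 100956733 to 100970887, on the minus strand. Ptrf read 8.23, 8.10 and 8.12 log2 with kynurenic acid, against 8.23, 8.09 and 8.16 log2 with PBS. Array 1 read highest in both groups, at the same value, and the groups covered nearly the same range. The log2 difference was -0.01 (SE 0.08), a fold of 0.99 with a 95% interval from 0.88 to 1.13 and a limma adjusted p = 0.975.

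Sdpr (Cavin2) encodes a cavin that binds phosphatidylserine and helps shape the membrane. Its 24 probes lie on chromosome 1 from 51289126 to 51302960. It read 8.46, 8.56 and 8.51 log2 with kynurenic acid, against 8.52, 8.57 and 8.46 log2 with PBS, so that the lowest value was the same in both groups. The log2 difference was -0.0067 (SE 0.076, fold 0.995, 95% interval 0.88 to 1.12), the smallest of the 8, with a limma adjusted p = 0.985. The differences of Ptrf and Sdpr had no stable sign: after cyclic loess they were 0.0397 and 0.0409 log2, and they turned above 0 on leaving out single arrays.

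Prkcdbp (Cavin3) encodes a cavin known as a binding partner of protein kinase C delta. Its 24 probes on chromosome 7, from 105480607 to 105482197, read 8.49, 8.58 and 8.59 log2 with kynurenic acid, against 8.67, 8.47 and 8.67 log2 with PBS. PBS array 2 was the lowest of the 6 and the other two PBS arrays the highest. The log2 difference was -0.05 (SE 0.086, fold 0.97, 95% interval 0.85 to 1.10, limma adjusted p = 0.868). It was -0.12 log2 without PBS array 2, and between -0.018 and -0.017 without kynurenic acid array 1, PBS array 1 or PBS array 3.

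Ehd2, the ATPase of the caveolar neck, and Pacsin2, the membrane-bending F-BAR protein, stand apart from the coat by role. Ehd2, with 24 probes on chromosome 7 from 15946977 to 15967567, read 10.51, 10.56 and 10.52 log2 with kynurenic acid, against 10.63, 10.52 and 10.57 log2 with PBS. PBS array 2 lay within the kynurenic acid range. Its difference was -0.043 log2 (SE 0.074, fold 0.97, 95% interval 0.86 to 1.09, limma adjusted p = 0.868), and -0.015 log2 without PBS array 1.

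Pacsin2 read 7.60, 7.84 and 7.81 log2 with kynurenic acid, against 7.78, 7.82 and 7.92 log2 with PBS, from 24 probes on chromosome 15 between 83375607 and 83464606. Kynurenic acid array 1 was the lowest of the 6, and the other two kynurenic acid arrays read within the PBS range. The log2 difference of -0.09 (SE 0.09, fold 0.94, 95% interval 0.82 to 1.08, limma adjusted p = 0.759) was -0.015 without kynurenic acid array 1. The within-group SD of Pacsin2 with kynurenic acid, 0.13 log2, was the highest of the members, and that of Cav1 and Ehd2 with kynurenic acid, 0.027 log2 each, the lowest.

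**Figure D2:**
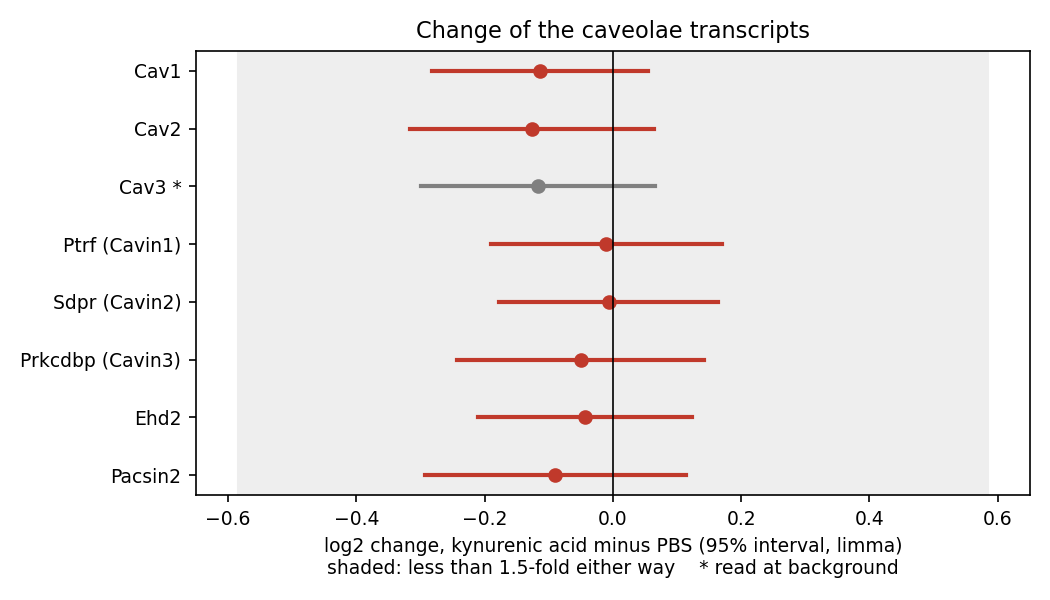
Log2 change, kynurenic acid minus PBS, of each caveolae transcript (points) with its 95% interval from limma (lines), on a horizontal log2 axis whose shading marks changes under 1.5-fold. Every interval includes 0 and lies inside the shading, and Cav3, in grey, was read at background.

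The lower side was also where most transcripts of this brightness lay. Among the 1921 other genes with a mean level within the span of the 7 members above background, 7.80 to 10.55 log2, 64.3% had a difference below 0, the median was -0.037 log2, and 16.2% had groups without overlap on the lower side. In contrast, the 6230 genes with mean levels of 3 to 4 log2 had a median of 0.05, with 32.8% below 0. Of the 7 members above background, whose median was -0.05, Cav1, Cav2, Prkcdbp, Ehd2 and Pacsin2 were further below 0 than the median of -0.037, and Ptrf and Sdpr were not. The level span was chosen after the values were seen. After cyclic loess, which evens out such a dependence on level between arrays, 6 of the 8 members lay below 0 with a median of -0.027, while 49.6% of all genes did.

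Averaged over the 7 members above background, deviations from each member's mean were -0.052, -0.02 and -0.022 log2 in kynurenic acid arrays 1, 2 and 3, against 0.052, 0.021 and 0.022 log2 in PBS arrays 1, 2 and 3. Medians of the 14213 genes above background were -0.012, 0.0033 and -0.02 log2 with kynurenic acid, against 0.017, 0.01 and 0.0017 log2 with PBS. Array 1 held the lowest average with kynurenic acid and the highest with PBS. In kynurenic acid array 1 the members' deviations ran from -0.195 log2 for Pacsin2 to 0.075 log2 for Ptrf, so that average leans on Pacsin2.

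**Figure D3:**
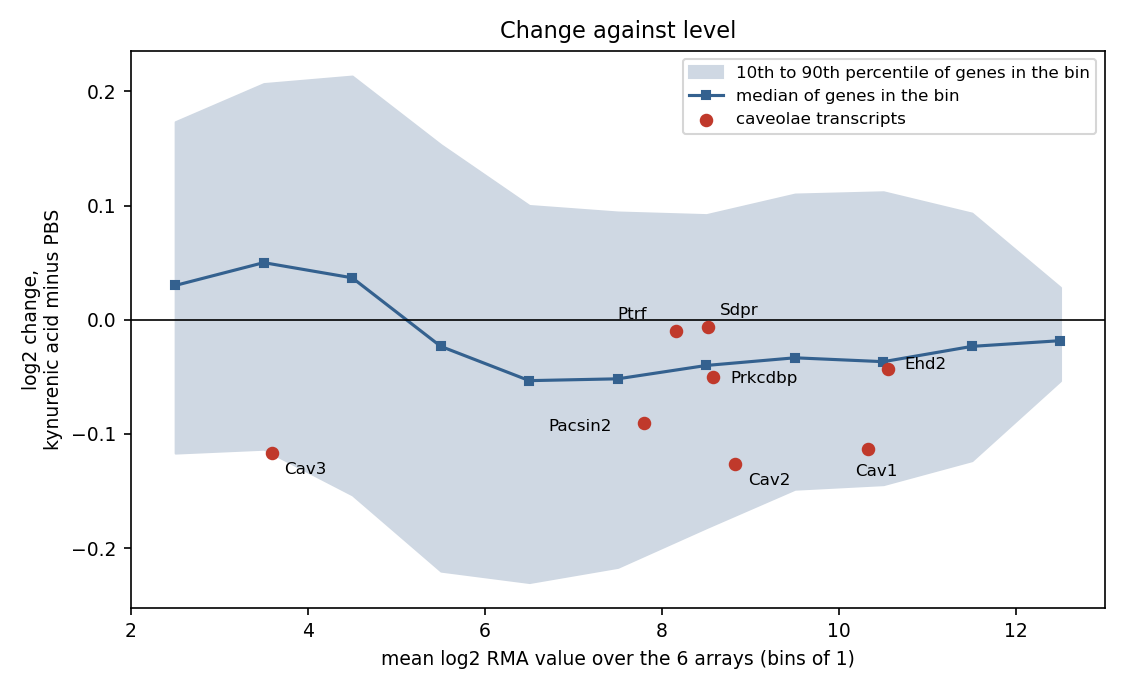
Log2 change, kynurenic acid minus PBS (vertical), against the mean log2 RMA value over the 6 arrays (horizontal), with the median (line) and the 10th to 90th percentile (shading) of all genes tested in bins of 1 log2, and the caveolae transcripts as red points. The line lies at 0.05 in the bin from 3 to 4 and at -0.04 in the bin from 8 to 9, and Ptrf and Sdpr lie above it. The other members above background lie below it inside the shading, and Cav3 lies at the lower edge of the shading, its change of -0.12 being below the 10th percentile of its bin, -0.1133.

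Relatives and partners of the coat proteins, a list of 14 written from textbook knowledge, showed no common direction. Of the 14, 0 passed over all genes, 6 lay above 0 and 8 below, with a median of -0.023 log2. Flna, the actin crosslinker filamin A that links caveolae to stress fibres, read 8.66, 8.52 and 8.39 log2 with kynurenic acid, against 8.51, 8.25 and 8.31 log2 with PBS. Its difference was 0.17 log2 (limma adjusted p = 0.605), with overlapping groups. Src, the kinase that phosphorylates caveolin-1, had a difference of 0.15 log2 (adjusted p = 0.613). Among the paralogs, the differences were -0.07 log2 for Ehd1, -0.093 for Ehd3 and -0.037 for Ehd4, and 0.12 for Pacsin1, while Pacsin3 was above background in 1 array. The dynamin gene Dnm2, whose product cuts vesicles from the membrane, had 0.073 log2, and the flotillin genes Flot1 and Flot2, which mark rafts without caveolin, had -0.087 and 0.017 log2.

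Of the adipocyte proteins reported in caveolae, 16 of 17 were measured, 0 passed, 7 lay above 0 and 9 below, with a median of -0.052 log2. The insulin receptor gene Insr had a difference of 0.0033 log2 with a 95% interval from -0.20 to 0.20. Slc2a4, the insulin-regulated glucose transporter, had 0.093 log2, and Cd36, the fatty acid translocase, -0.047. Adcy6, an adenylyl cyclase found in caveolae, read 7.37, 7.36 and 7.40 log2 with kynurenic acid, against 7.17, 7.09 and 7.27 log2 with PBS. Entpd1, an ectonucleotidase that splits extracellular ATP, read 5.11, 5.01 and 4.80 log2 with kynurenic acid, against 5.41, 5.21 and 5.16 log2 with PBS. Both had groups without overlap, in opposite directions (0.20 and -0.29 log2), and limma adjusted p-values of 0.494 and 0.480. Of the 16, 2 had groups without overlap on the higher side and 3 on the lower side. Over all genes 14.8% had groups without overlap, 7.51% on the lower side. Among genes above background in every array, as all 16 were, the shares were 17.5% and 10.9%. Of all genes with mean levels of 8 to 9 log2, 16.6% had groups without overlap on the lower side.

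The membrane of caveolae is rich in cholesterol and sphingomyelin. Of 16 genes that supply these lipids, 0 passed, 9 lay above 0 and 7 below, with a median of 0.01 log2. Sptlc1, a subunit of the first enzyme of sphingolipid synthesis, read 6.26, 6.50 and 6.14 log2 with kynurenic acid, against 6.55, 6.59 and 6.53 log2 with PBS, a difference of -0.26 log2 (limma adjusted p = 0.488). Stard4, a cholesterol carrier, read 6.51, 6.53 and 6.34 log2 with kynurenic acid, against 6.68, 6.67 and 6.71 log2 with PBS, a difference of -0.23 log2 (adjusted p = 0.470). In both genes all kynurenic acid arrays read below all PBS arrays. Of the 16, 3 had groups without overlap on the lower side and 2 on the higher side, against 14.8% of all genes in either direction. Among genes above background in every array, as 15 of the 16 were, 17.5% had groups without overlap, 10.9% on the lower side. Abca1, a cholesterol exporter, had a difference of 0.11 log2.

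Of 16 signalling genes whose products are reported to meet caveolins or cavins, 0 passed, 5 lay above 0 and 11 below, with a median of -0.073 log2. Ptgs2, the inducible prostaglandin synthase, read 5.29, 5.87 and 5.32 log2 with kynurenic acid, against 5.98, 6.0 and 5.70 log2 with PBS, a difference of -0.40 log2 with overlapping groups (limma adjusted p = 0.491). Bmpr2, a receptor for bone morphogenetic proteins, read 9.82, 9.76 and 9.78 log2 with kynurenic acid, against 9.59, 9.61 and 9.68 log2 with PBS (difference 0.16 log2, adjusted p = 0.516). Nos3, the endothelial nitric oxide synthase that caveolin-1 inhibits, had -0.023 log2. Prkcd, the kinase named as the partner of Prkcdbp, had -0.11 log2. Of the 16, 1 had groups without overlap on the higher side, Bmpr2, and 1 on the lower side, Prkcd. Over all genes 14.8% had groups without overlap, 7.51% on the lower side. Among genes above background in every array, as all 16 were, the shares were 17.5% and 10.9%.

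The array's own annotation gives the Gene Ontology term caveola to 68 of the genes tested, 6 members among them, namely Cav1, Cav2, Cav3, Ptrf, Sdpr and Pacsin2. This list was added after the values had been seen. Of the other 62, 0 passed the limma test, 31 lay above 0 and 29 below, with a median of 0.0017 log2. The kinesin gene Kif18a had -0.62 log2, with its 3 kynurenic acid arrays below background.

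**Figure D4:**
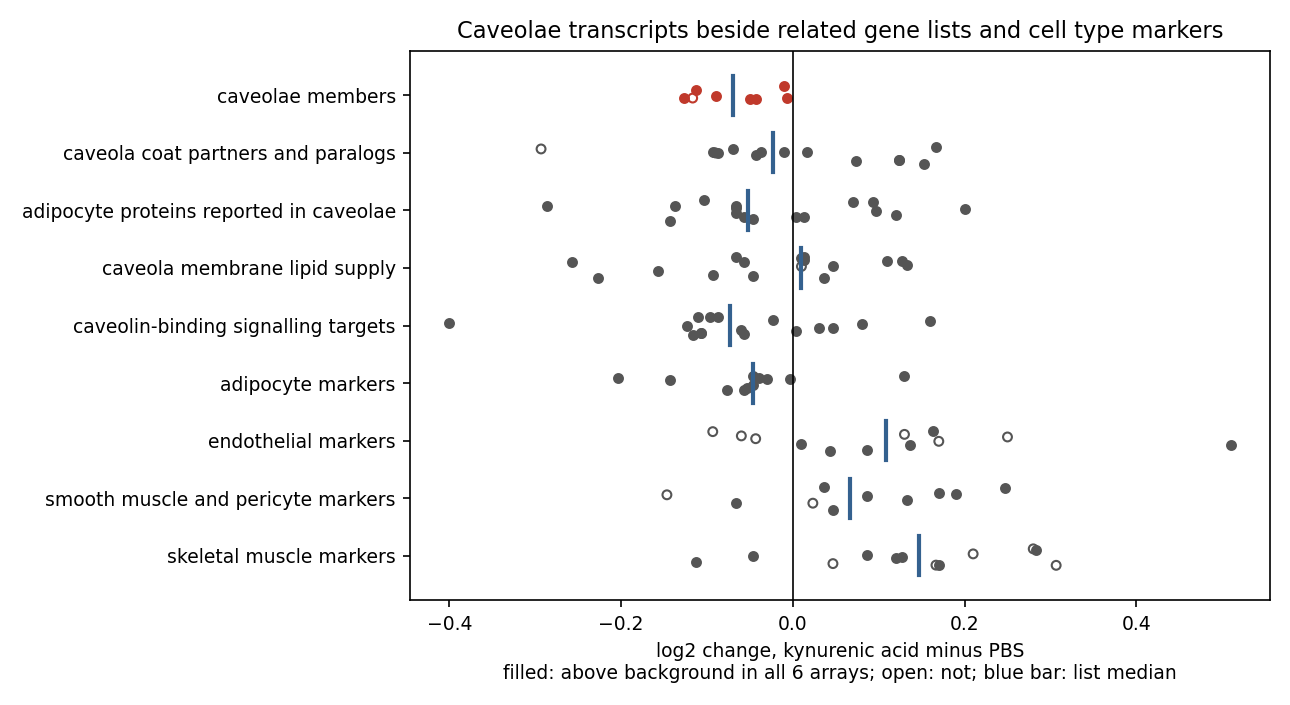
Log2 change, kynurenic acid minus PBS (horizontal), of each gene of the caveolae set, of 4 lists of related genes and of 4 lists of cell type markers, with filled points for genes above background in all 6 arrays, open points for the others and a blue bar for the list median. The caveolae transcripts span -0.13 to -0.0067, inside the range of each list of related genes.

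Markers of cell types rich in caveolae lay on both sides of 0. The share of all genes below 0 varied with mean level. It was 32.8% at 3 to 4 log2, 38.9% at 4 to 5, 66.1% at 6 to 7 and 63.3% at 10 to 11. Of the 11 measured adipocyte markers, 0 passed and 10 lay below 0, with a median of -0.047 log2. Their mean level was 10.61 to 10.63 log2 in the kynurenic acid arrays, against 10.65 to 10.69 log2 in the PBS arrays, and Lep, the leptin gene, differed by -0.20 log2 (limma adjusted p = 0.576). In RNA from whole cultures, fewer cells of a type and less RNA per cell cannot be told apart. Of 12 endothelial markers, 9 lay above 0, with a mean level of 4.37 to 4.40 log2 with kynurenic acid, against 4.24 to 4.32 log2 with PBS. Of these 12, 6 were above background in every array and Emcn in none, and Cdh5 differed by 0.51 log2 (adjusted p = 0.449). Smooth muscle and pericyte markers (10 genes, 8 above 0) averaged 6.17 to 6.30 log2, against 6.15 to 6.22 log2 with PBS, with Cnn1 at 0.25 log2.

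Of 12 skeletal muscle markers, 10 lay above 0 with a median of 0.15 log2, and their mean level was 4.03 to 4.13 log2 with kynurenic acid, against 3.89 to 4.0 log2 with PBS. All genes with mean levels of 3 to 4 and 4 to 5 log2 had medians of 0.05 and 0.037, with 32.8% and 38.9% below 0. Myh1, Myh4 and Mylpf were below background in every array, and Myog differed by 0.28 log2 (adjusted p = 0.507). The macrophage markers (10 genes, 9 below 0) had a median of -0.14 log2, with Ptprc at -0.31 log2. Their mean level was 7.28 to 7.52 log2 with kynurenic acid, against 7.33 to 7.62 log2 with PBS. The preadipocyte and fibroblast markers (9 genes, 6 below 0) had a median of -0.08 log2, with Thy1 at -0.18 log2. Their mean level was 7.26 to 7.41 log2 with kynurenic acid, against 7.40 to 7.45 log2 with PBS. None of these markers passed the limma test, and their part in the differences of the caveolae genes was not tested.

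The genes whose 6 array values were most like those of Cav1, by Pearson's r over the 6 arrays, were Sec22a (0.996), Rchy1 (0.988) and Lhfpl2 (0.987). Those most like Ptrf were Taf8 (0.991), Ckb (0.986) and Plce1 (0.985). These are descriptions over 6 arrays, chosen from 12108 genes. The highest r lay between 0.980 for Prkcdbp and 0.997 for Pacsin2 over the 7 members above background.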

How the data were processed

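RMA was used by the authors for the deposited log2 values (background subtraction, quantile normalization, median polish per transcript cluster), per the file headers, in Affymetrix Expression Console 1.41 per the submitters' processing notes, with NetAffx build 34 on mm10. Quantile normalization hides a shift shared by all transcripts. The authors' deposited table adds each group's mean linear intensity, a signed fold, a Student's t-test p-value and a q-value. The 2 deposited tables held equal array values, and those of the value table were analysed. Of 29726 clusters with a symbol, 26427 were of type 1, and the one with the highest mean per symbol gave 25614 genes. Groups follow the sample titles.

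Kynurenic acid was compared with PBS with limma 3.58.1 (R 4.3.3, lmFit and eBayes, two-sided, no covariates or filter, Benjamini-Hochberg over all genes), tested on simulated data. Differences are kynurenic acid minus PBS. The median 95% interval of the members above background reached 0.18 log2 to either side, and the number of arrays limits precision. Levels of different members were not ranked against each other. Genes were binned by mean level, and list levels averaged, across different probe sets, whose readings also depend on the probes. Members and lists were chosen with earlier results of these data known. Outside the members, the 2 genes (1 for markers) furthest from 0 per list among those above background in all arrays were named, with paralogs, cargo and other genes added for their role after values were seen. Single values of some list genes are not reported here. Alternatives were other clusters, scaling, filters, variance models, the replicate block, the methods' t-test and leaving out each array. Symbols were updated through RefSeq (GRCm38.p6), which held 88.0% of the genes by Entrez identifier.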

Additional observations from a re-analysis of the deposited data

How the results depend on the processing

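Over 16 alternatives, 0 genes and 0 members passed the test, with smallest adjusted p from 0.228 to 0.690 over all genes and from 0.426 to 0.775 over the members. Cav1, Cav2, Prkcdbp, Ehd2 and Pacsin2 stayed below 0 in each, Cav1 between -0.15 and -0.08. So did Cav3 in the 14 that kept it, since both filters on dim genes left it out. Only scaling and leaving out single arrays could move a member's difference. The other alternatives kept its value by construction, each member having a single cluster, so their sign adds nothing. With the intensity trend of limma and in the methods' t-test 1 member, Cav1, was below an unadjusted p of 0.05. So were 2745 of the 25614 genes with the intensity trend and 2049 with the methods' t-test. The adjusted p of Cav1 was 0.426 with the limma trend and 0.614 with the methods' t-test. It ranged from 0.426 to 0.830 over the alternatives. Ptrf turned to 0.0397 after cyclic loess, and to 0.015, 0.005 and 0.025 without kynurenic acid array 2, kynurenic acid array 3 and PBS array 1. Sdpr turned to 0.0409 after cyclic loess, and to 0.018 and 0.02 without kynurenic acid array 1 and PBS array 2. With single arrays left out Ptrf ran from -0.05 to 0.025 and Sdpr from -0.035 to 0.02. The members' median of -0.07 became -0.11 with arrays centred on their medians, where all genes had a median of -0.03 and 59.4% below 0, -0.027 after cyclic loess and -0.05 with either filter. It ran from -0.086 to -0.042 with single arrays left out, the smallest size being without kynurenic acid array 1. Pacsin2 was -0.015 without that array and -0.05 without PBS array 3. After cyclic loess Pacsin2 was -0.039, Ehd2 -0.015 and Prkcdbp -0.0029, and with arrays centred on their medians Ehd2 was -0.083 and Prkcdbp -0.09. The causes of these shifts were not tested, apart from the filters, which leave out Cav3.

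With the replicate block, 0 members passed (smallest adjusted p = 0.638) and 0 genes did, with 2688 below an unadjusted p of 0.05, against 2510 without it. Same-numbered arrays had correlations of their deviations of 0.022, 0.064 and 0.094. Different-numbered arrays ran from -0.082 to 0.018, the highest being kynurenic acid array 2 with PBS array 1. Each array thus correlated best with its own number, a weak hint from the data and not the design. Deviations within a group sum to 0, so these correlations are not independent of each other. Precision is limited by 3 arrays per group, and Cav3 by its signal at background.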
